A study of Mus musculus with 22 samples.

Results

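The 40 genes described here code for proteins that recognise, cut out, bypass, or recombine DNA damaged by crosslinks and bulky adducts, and they were read in whole kidneys of 22 mice. The rule picks rows of the count table by gene symbol and uses no measured level, although the list of symbols was drawn up with earlier results of these data known. All 40 were found among the 32858 genes of the count table. They fall into 7 groups by role: nucleotide excision repair (12 genes), Fanconi crosslink repair (12), translesion synthesis (6), homologous recombination (5), mismatch repair (1), the damage kinases (2), and a pair made of a strand break sensor and a subunit for nucleotide supply (2). All 40 passed the filter on low counts and were tested.

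Cisplatin binds purines and joins neighbouring bases of the same strand or, less often, bases of opposite strands. Nucleotide excision repair removes the former by cutting the strand on either side of the lesion, the Fanconi proteins unhook the latter, translesion polymerases copy past what is left, and homologous recombination restores the broken strand, while mismatch repair proteins also bind cisplatin adducts. In the kidney the proximal tubule takes up cisplatin and is the main site of its toxicity.

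All mice were C57Bl6/J males aged 8 to 10 weeks. Vehicle mice (n = 5) received the carrier of KW6002 (DMSO and cremophor in saline). KW6002 mice (n = 6) received 3 mg/kg KW6002, the adenosine receptor antagonist istradefylline, by daily intraperitoneal injection from day -5 to day 7. Cisplatin mice (n = 5) received 6 daily intraperitoneal injections of 3 mg/kg cisplatin from day 0. Cotreated mice (n = 6) received both drugs. Mice given cisplatin were killed 72 hours after its last injection, so 1 time point was measured, and each mouse gave 1 library of polyadenylated RNA from kidney tissue of mixed cell types. In such bulk samples fewer cells of a type and less RNA per cell cannot be told apart.

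Libraries held 26471762 to 40510754 counts. The labels number 6 mice in the 300s (3 vehicle and 3 KW6002) and 16 in the 500s (all others), so a difference between these series can be read only among mice without cisplatin. The tissue label was met by the 7 proximal tubule markers, none of which was at 0 in any group. Their summed level was 15828 to 17525 CPM (counts scaled to a common library size) with vehicle, 15261 to 16356 with KW6002, 1454 to 2735 with cisplatin, and 5892 to 9119 with both drugs, and all 7 fell with cisplatin. All 10 markers of cells in G2 and mitosis rose with cisplatin and all 10 fell when KW6002 was added, with summed levels of 10.2 to 25.6, 13.6 to 22.6, 38.3 to 52.3, and 8.84 to 21.1 CPM in the same order of groups. Of 9 S phase markers, 5 rose and 1 fell with cisplatin. Of 5 fibroblast markers, 5 rose. Both injured tubule markers, Havcr1 and Lcn2, rose, 3 of 4 tested T cell markers and all 3 B cell markers fell, 1 of 6 macrophage markers rose and 2 fell, and none of the 4 fat markers passed in either direction (0 also at an unadjusted p below 0.05). With KW6002 added to cisplatin, 6 of the 7 proximal tubule markers rose, all 4 fat markers fell (summed level 336 to 627 CPM with cisplatin and 37.9 to 211 with both drugs), 4 of the 5 fibroblast markers fell, and both injured tubule markers fell. The part of these shifts in the repair gene results was not tested.

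Levels of different genes are compared here only as CPM per kilobase of merged exons. In vehicle kidneys they spanned from 69.4 ± 2.01 for Ddb1 (SD, n = 5), the DNA-binding platform of a ubiquitin ligase, to 0.0653 ± 0.0305 for Fanci. The upper places held damage recognition and general factors: Rad23b was at 24.98 ± 2.74, Ercc3 at 12.0 ± 0.779, Parp1 at 11.8 ± 0.399, and Xpc at 11.2 ± 0.324 CPM per kilobase. The libraries of Ercc3, Parp1, and Xpc overlapped, so no order among these 3 can be read. The lowest places held Brca1 at 0.0829 ± 0.0121, Fancd2 at 0.0841 ± 0.0173, and Fanci, again with overlapping libraries. Ercc1 and Ercc4, the partners of a structure-specific nuclease, held ranks 17 and 18 of 40, with 3.34 ± 0.293 and 3.28 ± 0.238 CPM per kilobase.

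With cisplatin 4 genes that had ranked between 12 and 20 moved, by their means, to ranks 3 to 6. Ercc1 moved from rank 17 to rank 3 (14.2 ± 2.14 CPM per kilobase), Mad2l2 from rank 13 to rank 4 (13.7 ± 1.64), Ercc5 from rank 12 to rank 5 (12.8 ± 1.00), and Polk from rank 20 to rank 6 (12.5 ± 0.784). Ercc3 came next at rank 7 (11.9 ± 0.781), and these spreads overlapped, so no order among ranks 3 to 7 can be read. Ddb1 and Rad23b kept ranks 1 and 2. The 40 genes together took 0.116% to 0.124% of all counts with vehicle, 0.117% to 0.124% with KW6002, 0.164% to 0.172% with cisplatin, and 0.140% to 0.156% with both drugs. These are shares of library totals, a scaling under which the median of all tested genes was also higher with cisplatin, by a log2 of 0.20.

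**Figure D1:**
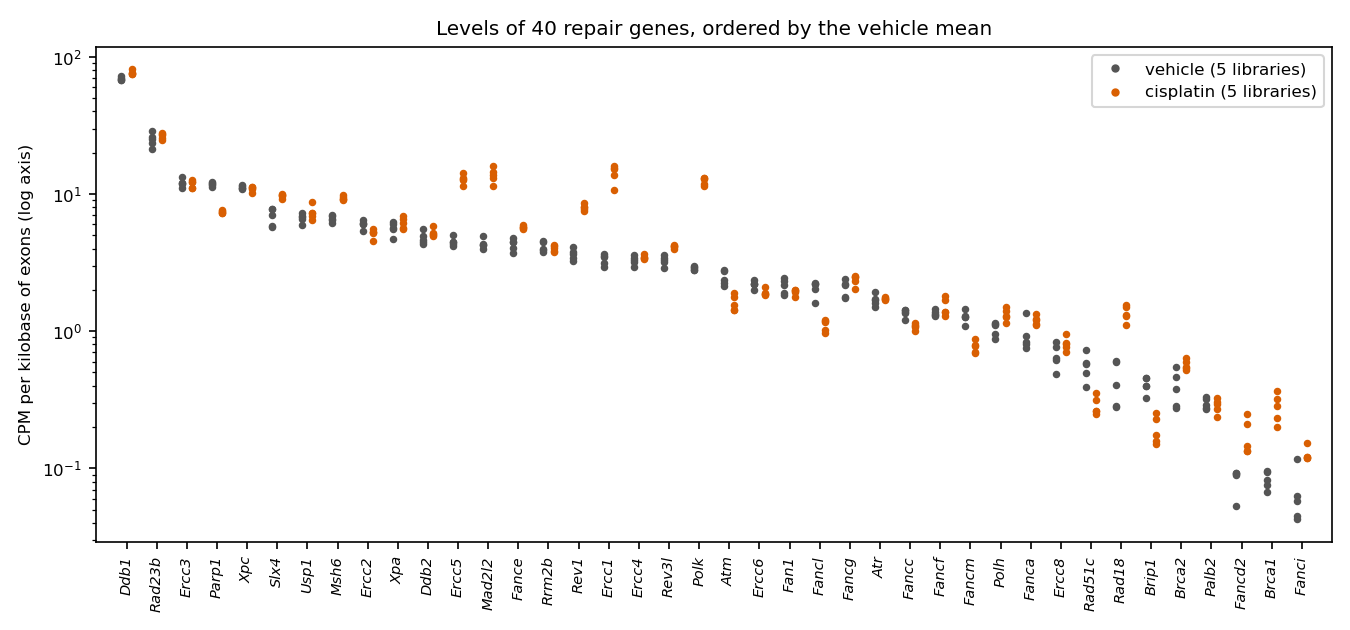
CPM per kilobase of exons (log axis) of each of the 40 repair genes, ordered by the vehicle mean, with 1 point for each of the 5 vehicle (grey) and 5 cisplatin (orange) libraries. Ercc5, Mad2l2, Ercc1, and Polk stand clear above their vehicle points, and Parp1, Fancl, and Brip1 stand below theirs.

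The first comparison asked which of these genes differed between cisplatin and vehicle kidneys. Cisplatin raised 17 of the 40 genes and lowered 9 at an adjusted p below 0.05, where 34.6% of all 17131 tested genes were higher and 35.9% lower. Scaling by library totals, which put the median of all tested genes at 0.20 on the log2 scale, gave 29 higher and 6 lower. Shares over all tested genes were not counted under that scaling, here or below, so its counts stand without a background. Under a stricter call (a log2 change past 1 in size at an adjusted p under 0.01), 8 genes were higher, against a background of 12.1%, and 1 was lower, against 12.1%. The 8 were Polk, Ercc1, Brca1, Mad2l2, Rad18, Ercc5, Rev1, and Fancd2, and the 1 was Brip1. Cisplatin libraries lay wholly above vehicle libraries for 14 genes (background 27.4%) and wholly below for 7 (background 27.9%).

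The counts by group are given beside the 34.6% higher and 35.9% lower over all tested genes. All 6 listed translesion genes rose, with a median log2 fold change of 1.39. The list was drawn up with earlier results known. Of 6 other translesion genes, none rose by the edgeR test and 3 fell (median -0.10). In nucleotide excision repair 3 of 12 rose and 2 fell (median 0.11), in Fanconi crosslink repair 5 of 12 rose and 3 fell (median 0.18), and in homologous recombination 2 of 5 rose and 2 fell (median -0.06). Scaled by library totals, 10 of 12 were higher and 0 lower in excision repair, and 8 of 12 were higher and 2 lower in the Fanconi group. In translesion synthesis 6 of 6 were higher, and in homologous recombination 2 of 5 were higher and 2 lower. The counts in excision repair thus depend on the scaling. The medians under library totals were 0.33 in excision repair and 1.60 in translesion synthesis, beside 0.11 and 1.39 above. The mismatch repair gene rose, 1 of 2 kinases fell, and 1 of the pair of sensor and supply genes fell. The median over all 40 was 0.14, and over all tested genes -0.01.

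**Figure D2:**
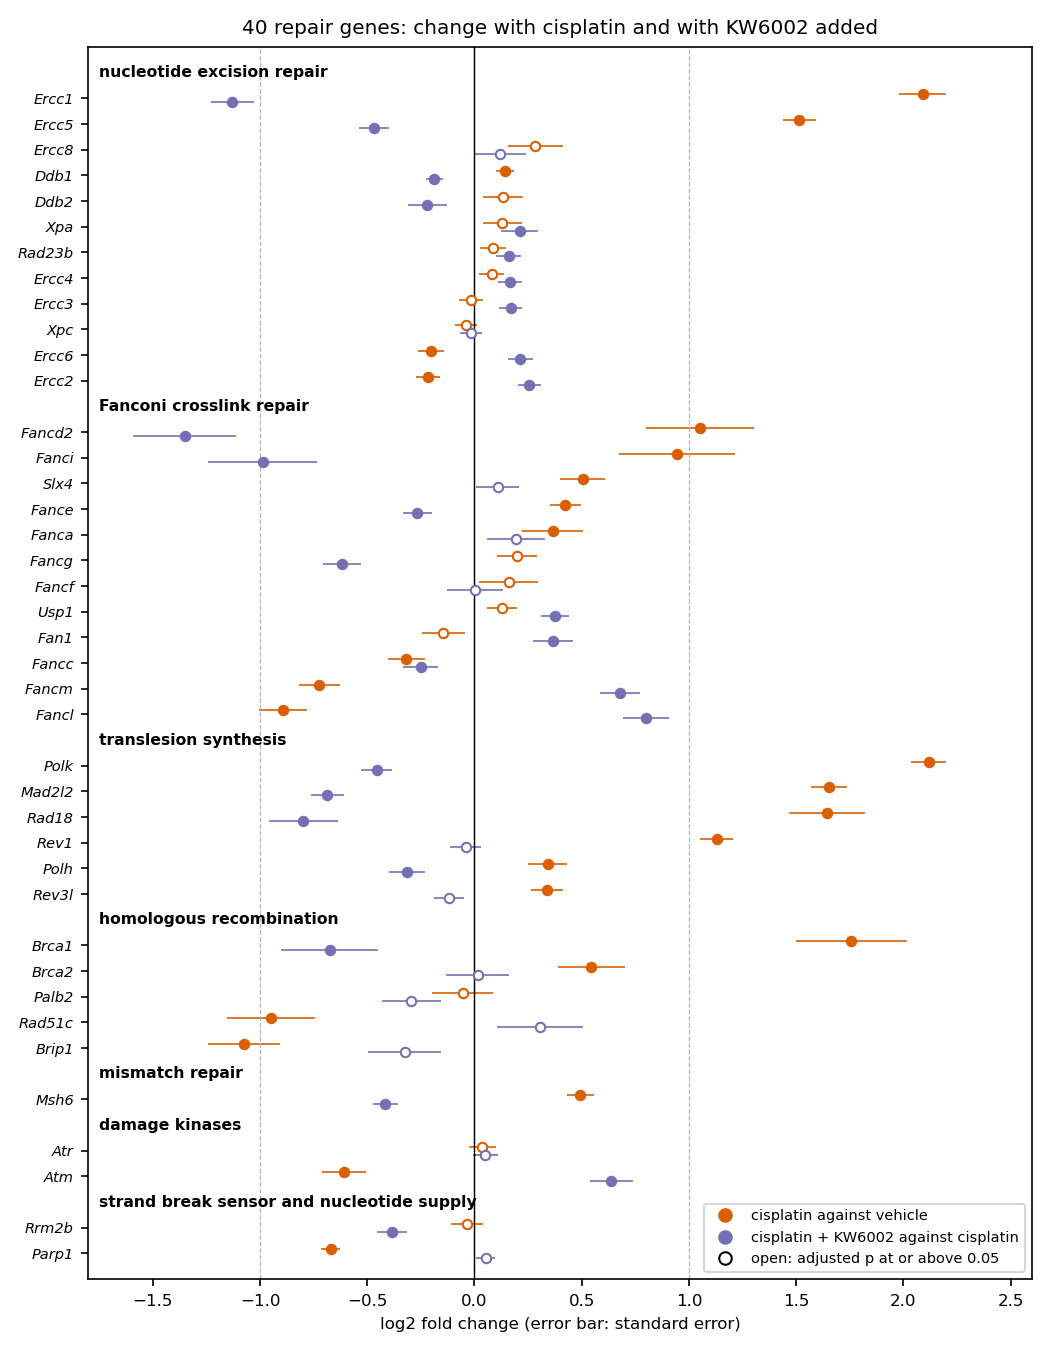
Log2 fold change (horizontal axis, error bar: standard error) of the 40 repair genes by group, for cisplatin against vehicle (orange) and cisplatin + KW6002 against cisplatin (purple), with open circles at an adjusted p of 0.05 or above and dashed lines at the called fold. All 6 translesion genes lie to the right with cisplatin, and Fancl, Fancm, and Atm lie on opposite sides in the 2 comparisons.

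In nucleotide excision repair the 2 genes called with cisplatin both code for proteins of the incision step. Ercc1, whose protein forms with the Ercc4 product the nuclease that cuts on the 5′ side of a lesion and also acts on crosslinks, was at 10.9, 9.14, 9.71, 10.8, and 11.3 CPM in the 5 vehicle kidneys and at 47.9, 42.8, 50.1, 47.0, and 33.3 CPM in the 5 cisplatin kidneys. It was at a low of 9.38, a median of 10.8, and a high of 12.3 CPM with KW6002, and at 17.3, 19.8, and 24.5 CPM with both drugs. Cisplatin kidneys stood above all others, and cotreated kidneys lay between them and vehicle with no overlap on either side. The change was 4.26-fold with cisplatin (log2 2.09 ± 0.11 SE, adjusted p = 1.5e-13), and cotreatment lowered it to 0.457 of the cisplatin level (log2 -1.13 ± 0.10, adjusted p = 4.0e-09), leaving it 1.95-fold above vehicle (adjusted p = 8.4e-08). Ercc1 (chromosome 7, 19344778 to 19356524, plus strand, mm10) shares 106 exonic bases with Cd3eap on the other strand, and whether counting used strand is not given in the sources used here.

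Ercc5 codes for the nuclease that cuts on the 3′ side. It was at 26.4, 25.4, 24.4, 29.6, and 26.1 CPM with vehicle and at 75.3, 74.3, 83.3, 77.0, and 66.9 CPM with cisplatin. With KW6002 it ran from 23.8 to 28.4 CPM around a median of 24.99, and with both drugs from 46.9 to 61.9 around 54.0. Every cisplatin library was above every cotreated library, and every cotreated library above every vehicle library. Ercc5 rose 2.86-fold (adjusted p = 5.8e-14), fell by 0.47 ± 0.07 on the log2 scale when KW6002 was added (adjusted p = 6.4e-06), and stayed 2.06-fold above vehicle.

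The 250 bases before the Ercc5 start (chr1:44147494-44147743, plus strand, GRCm38.p6 from RefSeq, outside any annotated exon) are shown because Ercc5 was the only one of the 33 repair genes with a listed promoter that held TTTGAA, the core of the element through which many cell cycle genes are repressed. Capitals mark CCAAT on the gene's strand and TTTGAA on the other strand (read as TTCAAA).
Ercc5: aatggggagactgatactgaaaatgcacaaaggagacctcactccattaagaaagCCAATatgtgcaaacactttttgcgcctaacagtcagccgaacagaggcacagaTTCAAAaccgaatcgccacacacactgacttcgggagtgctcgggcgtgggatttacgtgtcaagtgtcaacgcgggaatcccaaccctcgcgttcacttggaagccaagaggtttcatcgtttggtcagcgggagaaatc
On either strand, TTTGAA was in 15.99% of 32851 such windows of all genes and CCAAT, the box bound by NF-Y, in 33.8%. CCAAT was in 17 of the 37 windows of the 33 repair genes (45.9%). A match describes letters only.

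The other 10 excision genes had smaller estimates. Ddb1 rose by a log2 of 0.14 ± 0.04 (adjusted p = 0.0038) with no overlap between cisplatin and vehicle libraries. Ercc2, a helicase of the transcription factor TFIIH, and Ercc6, which couples repair to stalled transcription, fell by 0.22 ± 0.06 and 0.20 ± 0.06 (adjusted p = 0.0020 and 0.0048), both with overlapping libraries. Scaled by library totals, both were near 0. Among mice numbered in the 500s Ddb1 (0.12, adjusted p = 0.10) and Ercc2 (-0.14, adjusted p = 0.13) did not pass. The damage sensors Xpc (log2 -0.04 ± 0.05, adjusted p = 0.52) and Ddb2 (0.13 ± 0.09, adjusted p = 0.21), the scaffold Xpa (0.13 ± 0.09), the TFIIH helicase Ercc3 (-0.02 ± 0.06), Ercc4 (0.08 ± 0.06), Rad23b (0.09 ± 0.06), and Ercc8 (0.28 ± 0.13, adjusted p = 0.055) did not pass. Ercc8 did pass by DESeq2 (0.29, adjusted p = 0.048) and with the replicate block (0.29, adjusted p = 0.023), and scaled by library totals Xpc, Ddb2, Xpa, Ercc3, Ercc4, Rad23b, and Ercc8 all passed as higher, by 0.18 to 0.50. Xpc and Ddb2 are known p53 targets in human cells. Xpc libraries were at 59.7 to 63.8 CPM with vehicle and 56.0 to 62.3 with cisplatin.

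With KW6002 added to cisplatin, 6 of the 12 excision genes were higher and 4 lower, and across all tested genes 28.6% were higher and 27.2% lower. Beside Ercc1 and Ercc5 the lower genes were Ddb1 (log2 -0.19 ± 0.04) and Ddb2 (-0.22 ± 0.09), which did not pass in 8 of the 11 fits that leave out a library (adjusted p up to 0.12). The higher ones, Ercc2, Ercc6, Xpa, Ercc3, Ercc4, and Rad23b, moved by 0.16 to 0.26, and 4 of them (Xpa, Ercc3, Ercc4, and Rad23b) no longer passed when libraries were scaled by their totals. Against vehicle, cotreated kidneys had 7 of the 12 excision genes higher, where 29.8% of all tested genes were higher, and none lower by the edgeR or DESeq2 test.

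In the Fanconi group cisplatin separated the substrate of the pathway from parts of its upstream complex. Fancd2 and Fanci code for the pair that is clamped onto DNA once monoubiquitinated. Fancd2 was at 0.712, 0.722, 0.739, 0.740, and 0.423 CPM with vehicle and at 1.97, 1.16, 1.07, 1.07, and 1.67 CPM with cisplatin. It was at 0.651, 0.860, and 1.06 CPM (lowest, median, highest) with KW6002 and at 0.313, 0.504, and 0.959 with both drugs. Cisplatin libraries stood above those of the other 3 groups, while cotreated and vehicle libraries overlapped. These levels rest on 11 to 74 reads per library. Fancd2 rose 2.08-fold (log2 1.05 ± 0.25, adjusted p = 0.00076) and fell to 0.392 of the cisplatin level with KW6002 (log2 -1.35 ± 0.24, adjusted p = 5.5e-05).

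Fanci, with 7 to 31 reads per library, was at 0.680, 0.361, 0.336, 0.247, and 0.260 CPM with vehicle and at 0.693, 0.703, 0.693, 0.696, and 0.878 with cisplatin. It rose 1.92-fold (log2 0.94 ± 0.27, adjusted p = 0.0037) and fell with KW6002 (log2 -0.99 ± 0.25, adjusted p = 0.0022), without reaching the call in either comparison. Cotreated replicate 1 was the highest of its group for Fancd2 (0.959 CPM), Fanci (0.671), and Brca1 (2.27), and also for the summed G2 and mitosis markers (21.1 CPM). Without that library the cotreated change was -1.58 for Fancd2 and -1.24 for Fanci on the log2 scale. Exons of Fancd2 and Fanci share 257 bases with Fancd2os and 921 with Polg on the other strand.

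Fancl, the ubiquitin ligase that modifies this pair, and Fancm, the translocase that brings the complex to a stalled fork, moved the other way. Fancl was at 7.45, 7.46, 7.63, 6.80, and 5.43 CPM with vehicle and at 3.28, 3.44, 4.02, 3.91, and 4.08 with cisplatin, and ran from 5.61 to 7.87 around a median of 6.43 with both drugs. No cisplatin library reached the lowest of the other groups. Fancl fell to 0.539 of vehicle (log2 -0.89 ± 0.11, adjusted p = 2.0e-07) and Fancm to 0.606 (log2 -0.72 ± 0.10, adjusted p = 5.9e-07). Both rose when KW6002 was added, by 0.80 ± 0.11 and 0.68 ± 0.09, to within 0.09 ± 0.10 and 0.04 ± 0.09 below vehicle, differences that did not pass (adjusted p = 0.46 and 0.71).

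The core complex genes did not move as a set. Fance rose by 0.42 ± 0.07 with cisplatin and Fanca by 0.36 ± 0.14. Fancc fell by 0.32 ± 0.09, a change that was -0.10 and did not pass (adjusted p = 0.32) when scaled by library totals. Fancg (0.20 ± 0.09, adjusted p = 0.063) and Fancf (0.16 ± 0.14, adjusted p = 0.31) did not pass. Fancg passed with the label series in the model (0.32, adjusted p = 0.0065), among mice numbered in the 500s (0.42, adjusted p = 0.0047), with the replicate block (0.20, adjusted p = 0.030), and scaled by library totals (0.42, adjusted p = 0.00056). Fanca lost its pass (adjusted p 0.065 to 0.084) when vehicle replicate 1, 4, or 5 or cisplatin replicate 2 was left out. With KW6002 added Fancg fell by 0.62 ± 0.09, from 7.65 to 9.51 CPM in cisplatin libraries to 5.10 to 6.71 in cotreated ones with no overlap, and Fancc was lower by 0.25 ± 0.08, at 0.674 of vehicle.

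Downstream of the complex, Slx4, the scaffold of crosslink nucleases, rose by 0.50 ± 0.11 and stayed up in cotreated kidneys (1.53-fold above vehicle, adjusted p = 2.5e-05). Fan1, a nuclease recruited by the modified pair, did not pass with cisplatin (-0.14 ± 0.10, adjusted p = 0.19) but was 0.37 ± 0.09 higher in cotreated than in cisplatin kidneys, with no overlap. Usp1, which removes the ubiquitin from Fancd2, did not pass with cisplatin (0.13 ± 0.07, adjusted p = 0.10) and was 1.42-fold above vehicle in cotreated kidneys (adjusted p = 1.0e-06), at 32.3, 35.3, and 39.1 CPM (lowest, median, highest) against 22.2, 24.4, 25.8, 25.5, and 27.0 CPM with vehicle. In all, 4 of the 12 Fanconi genes were higher (background 28.6%) and 5 lower (background 27.2%) in cotreated than in cisplatin kidneys.

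All 6 listed translesion genes rose with cisplatin, whereas of 6 other translesion genes none rose by the edgeR test and 3 fell. Polk, a polymerase that extends past bulky lesions, changed by about as much as Ercc1, and these 2 lay within their errors of each other. It was at 15.4, 16.1, 16.3, 16.4, and 15.5 CPM with vehicle and at 71.6, 66.0, 72.2, 72.9, and 63.1 CPM with cisplatin. It was at 15.9, 16.7, and 17.04 CPM (lowest, median, highest) with KW6002 and at 39.8, 52.1, and 58.8 with both drugs. No 2 of vehicle, cisplatin, and cotreated libraries overlapped. Polk rose 4.34-fold (log2 2.12 ± 0.08, adjusted p = 1.1e-15), fell by 0.46 ± 0.07 on the log2 scale with KW6002 (adjusted p = 1.6e-05), and stayed 3.16-fold above vehicle (adjusted p = 1.1e-13).

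Polk (chromosome 13, 96480690 to 96542579, minus strand, mm10) is described in mice as a p53 target. The window before its listed internal start (chr13:96519188-96519437, minus strand, GRCm38.p6 from RefSeq, inside the gene and outside annotated exons) is shown because it held a p53 half-site decamer, in capitals. The pattern searched for is the same on both strands.
Polk: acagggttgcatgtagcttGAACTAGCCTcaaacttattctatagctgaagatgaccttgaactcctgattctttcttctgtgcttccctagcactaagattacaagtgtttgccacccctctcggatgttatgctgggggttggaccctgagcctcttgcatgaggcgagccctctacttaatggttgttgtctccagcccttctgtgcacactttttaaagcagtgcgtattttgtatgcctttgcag
The decamer was in 7.13% of all 32851 windows and in 4 of the 37 windows of the 33 repair genes (10.8%). The 4 genes were Polk, Brip1, Fanca, and Fancg, of which Polk and Fanca rose with cisplatin and Brip1 fell. The window before the outer Polk start did not hold it, which says only that these letters are not in it.

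Mad2l2 codes for Rev7, the bridging subunit of polymerase zeta and a part of the shieldin complex. It was at 11.1, 11.3, 12.9, 10.5, and 11.2 CPM with vehicle and at 30.1, 41.8, 37.7, 36.0, and 34.2 CPM with cisplatin, and ran from 11.7 to 13.5 around 12.7 with KW6002 and from 20.1 to 26.4 around 21.4 with both drugs. Cotreated libraries lay between vehicle and cisplatin with no overlap. Mad2l2 rose 3.15-fold (adjusted p = 5.2e-14) and fell to 0.621 of the cisplatin level with KW6002 (adjusted p = 9.3e-08).

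Rad18, the ligase that marks PCNA to call translesion polymerases, was at 3.47, 3.49, and 2.35 CPM in the 3 vehicle mice numbered in the 300s and at 1.66 and 1.63 CPM in the 2 numbered in the 500s. It was at 7.51, 9.04, 8.69, 7.54, and 6.46 CPM with cisplatin, and at 1.99, 2.80, and 2.95 CPM (lowest, median, highest) with KW6002 and 3.97, 4.61, and 5.01 with both drugs. Every cisplatin library stood above every other, and the vehicle libraries split by label series. Rad18 rose 3.12-fold (log2 1.64 ± 0.18, adjusted p = 2.1e-08), or by a log2 of 2.25 when only mice numbered in the 500s were compared, and fell by 0.80 ± 0.16 with KW6002 (adjusted p = 0.00020).

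Rev1, the scaffold on which the other translesion polymerases meet, was the called gene of this group that did not pass as lower with KW6002 added. It was at 22.5, 21.2, 25.5, 20.0, and 23.4 CPM with vehicle and at 49.9, 48.1, 52.6, 49.5, and 46.3 CPM with cisplatin, and ran from 23.3 to 28.6 around 26.7 with KW6002 and from 42.6 to 54.4 around 48.1 with both drugs. Cisplatin and cotreated libraries overlapped and both stood above vehicle. Rev1 rose 2.19-fold (adjusted p = 1.1e-11), differed by -0.04 ± 0.07 on the log2 scale between cotreated and cisplatin kidneys (adjusted p = 0.64), and was 2.13-fold above vehicle with both drugs (adjusted p = 4.9e-11). The effect of KW6002 on Rev1 was lower with cisplatin than without it, a difference that passed over all libraries. In fits leaving out a library it was -0.32 to -0.23, and in 12 of 22 it did not pass. Of the 6168 exonic bases of Rev1, 1643 are shared with Eif5b on the other strand.

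Rev3l, the catalytic subunit of polymerase zeta, rose by 0.34 ± 0.07 (adjusted p = 0.00036) and Polh, the polymerase that copies past cisplatin adducts on neighbouring guanines, by 0.34 ± 0.09 (adjusted p = 0.0019). Polh fell by 0.31 ± 0.09 with KW6002 added, while Rev3l (-0.12 ± 0.07, adjusted p = 0.16) did not pass. In all, 4 of the 6 translesion genes (5 when scaled by library totals, Rev3l being the fifth) were lower in cotreated than in cisplatin kidneys (background 27.2%) and none was higher by the edgeR or DESeq2 test, while 5 of 6 were still higher than with vehicle (background 29.8%).

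**Figure D3:**
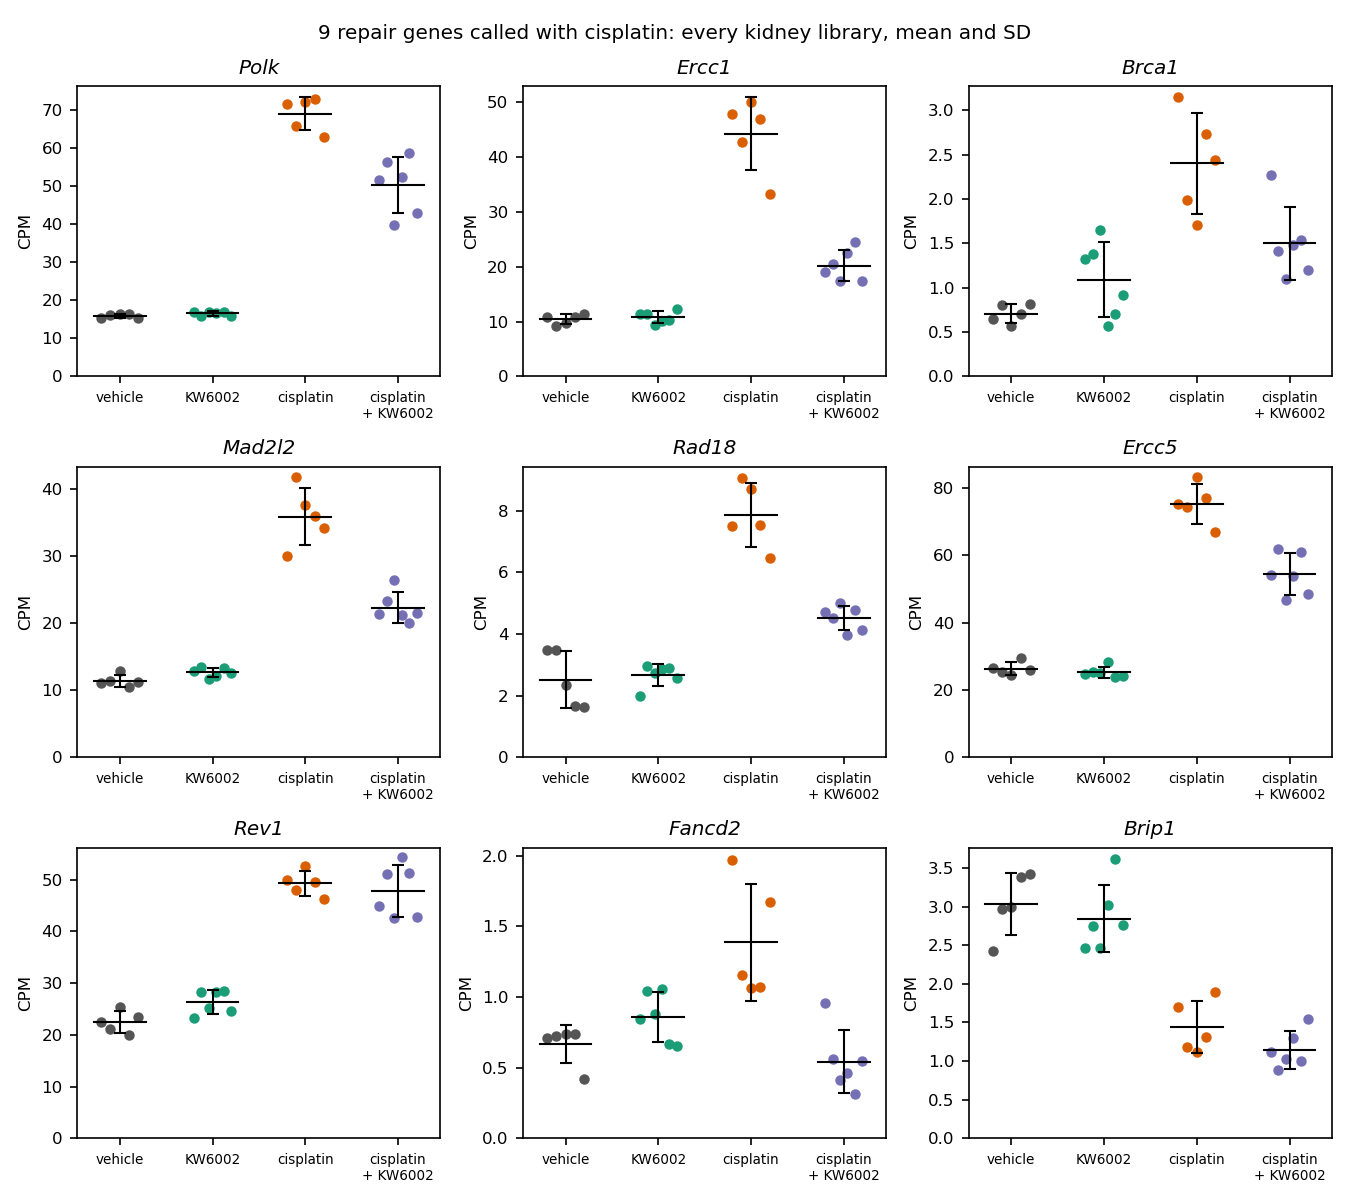
CPM (vertical axis, from 0) in every kidney library of the 9 genes called with cisplatin, by group, with the mean and SD in black. Cotreated libraries sit between vehicle and cisplatin for Ercc1, Mad2l2, Polk, Ercc5, and Rad18, overlap with cisplatin for Rev1, and overlap with vehicle for Fancd2.

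In homologous recombination cisplatin raised the BRCA genes and lowered Brip1 and Rad51c. Brca1 was at 0.648, 0.802, 0.571, 0.704, and 0.814 CPM with vehicle and at 3.14, 1.98, 1.71, 2.73, and 2.44 CPM with cisplatin. KW6002 libraries numbered in the 300s were at 1.32, 1.38, and 1.65 CPM and those in the 500s at 0.566, 0.703, and 0.920. Cotreated libraries ran from 1.10 to 2.27 around 1.45 CPM, above all vehicle libraries and overlapping with cisplatin. Brca1 rose 3.38-fold (log2 1.76 ± 0.26, adjusted p = 2.3e-06) and fell by 0.68 ± 0.22 with KW6002 added (adjusted p = 0.014), a change that no longer passed without cisplatin replicate 1 (-0.56, adjusted p = 0.052). It remained 2.12-fold above vehicle (adjusted p = 0.00094). These levels rest on 15 to 118 reads per library.

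Brca2, a tumour suppressor that acts in strand exchange, rose by 0.54 ± 0.16 (adjusted p = 0.0038) and was 0.56 ± 0.15 above vehicle with both drugs (adjusted p = 0.0031). Its vehicle libraries were at 5.15, 7.499, and 6.35 CPM in the 300s and at 3.73 and 3.87 CPM in the 500s, against 7.11 to 8.64 with cisplatin. Compared only among mice in the 500s the rise was 1.02 on the log2 scale. The 250 bases before its start (chr5:150522371-150522620, plus strand, GRCm38.p6 from RefSeq, outside annotated exons) are shown because they held an E2F element, TTTCCCGC, on the other strand (read as GCGGGAAA) and a cyclic AMP response element, TGACGTCA, which reads the same on both strands. Both are in capitals.
Brca2: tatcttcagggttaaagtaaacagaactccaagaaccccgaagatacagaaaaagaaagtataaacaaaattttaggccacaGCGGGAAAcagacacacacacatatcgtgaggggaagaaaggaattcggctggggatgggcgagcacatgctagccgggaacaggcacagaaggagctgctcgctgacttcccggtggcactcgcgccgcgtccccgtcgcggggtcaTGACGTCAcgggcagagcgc
TTTCCCGC was in 0.895% of all windows and TGACGTCA in 1.55%. Each was found in 2 of the 37 windows of the 33 repair genes, or 5.41% (Brca2 and Fancg, and Brca2 and Rad51c).

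Brip1, the helicase that binds the Brca1 protein, was at 2.43, 2.97, 2.99, 3.38, and 3.42 CPM with vehicle and at 1.70, 1.18, 1.12, 1.31, and 1.90 CPM with cisplatin. It was at 2.46, 2.75, and 3.62 CPM (lowest, median, highest) with KW6002 and at 0.878, 1.07, and 1.55 with both drugs. Libraries with cisplatin, alone or combined, all lay below those without it. Brip1 fell to 0.475 of vehicle (log2 -1.07 ± 0.17, adjusted p = 6.2e-06) and was at 0.379 of vehicle with both drugs (adjusted p = 2.0e-07), and the step between cisplatin and cotreated kidneys did not pass (-0.33 ± 0.17, adjusted p = 0.11). Without cisplatin replicate 3 its change was -0.99 and no longer called.

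Rad51c, which acts in homologous recombination, fell by 0.95 ± 0.21 (adjusted p = 0.00028), to 1.09 to 1.56 CPM from 1.73 to 3.19 with vehicle. It passed the fold of the call without vehicle replicate 4 (-1.05) or cisplatin replicate 5 (-1.03). With both drugs it was still below vehicle (log2 -0.65 ± 0.19, adjusted p = 0.0067), but not past the threshold among mice numbered in the 500s (-0.45, adjusted p = 0.14). Palb2, which joins the BRCA proteins, did not pass with cisplatin (-0.06 ± 0.14, adjusted p = 0.74).

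Msh6, a mismatch sensor, was the only mismatch repair gene of the 40. It was at 26.7, 30.7, 30.1, 28.7, and 28.02 CPM with vehicle and at 41.2, 39.1, 40.2, 42.6, and 40.1 CPM with cisplatin, and ran from 27.9 to 33.4 around 30.5 with both drugs. Cisplatin stood apart from all other groups, which overlapped. Msh6 rose 1.41-fold (adjusted p = 2.1e-07), fell to 0.750 of the cisplatin level with KW6002 (adjusted p = 2.8e-06), and then differed from vehicle by 0.08 ± 0.06 (adjusted p = 0.26). With the label series in the model this last difference was 0.15 (adjusted p = 0.044), and scaled by library totals it was 0.23 (adjusted p = 0.0018), so both gave a pass. Of the 7 other mismatch repair genes, 5 fell with cisplatin, against a background of 35.9%, and 1 rose, against 34.6%. The 1 was Exo1, which also fell when KW6002 was added.

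Of the kinases, Atm, which signals double strand breaks, fell and Atr, which signals stalled forks, did not pass. Atm was at 21.96, 28.4, 29.1, 24.3, and 23.2 CPM with vehicle, 18.2, 14.8, 14.7, 15.998, and 19.6 with cisplatin, and 21.999 to 28.1 around 26.5 with both drugs. The cisplatin libraries lay below all others. Atm fell by 0.61 ± 0.10 (adjusted p = 1.6e-05) and was 0.64 ± 0.10 higher in cotreated than in cisplatin kidneys (adjusted p = 1.0e-05). Atr differed by 0.04 ± 0.06 with cisplatin (adjusted p = 0.62), at 35.3 to 45.7 CPM with vehicle and 39.7 to 42.2 with cisplatin.

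Parp1, which senses strand breaks, fell. It was at 59.7, 64.9, 64.0, 62.7, and 61.2 CPM with vehicle and at 40.7, 38.3, 39.1, 38.5, and 39.9 with cisplatin, and ran from 35.6 to 43.8 around 41.4 with both drugs. Cisplatin and cotreated libraries overlapped, and both lay below vehicle. Parp1 fell by 0.67 ± 0.04 (adjusted p = 6.5e-12) and differed by 0.05 ± 0.04 when KW6002 was added (adjusted p = 0.32). Rrm2b, the p53-inducible small subunit of ribonucleotide reductase, did not pass with cisplatin (-0.04 ± 0.07, adjusted p = 0.68) and was lower with both drugs, by 0.39 ± 0.07 against cisplatin and by 0.42 ± 0.07 against vehicle, with no overlap in either.

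The second comparison asked what KW6002 changed in kidneys that had received cisplatin. Across the 40 genes, 11 were higher (background 28.6%) and 16 lower (background 27.2%), and scaling by library totals gave 7 and 18. No gene was called higher by edgeR or DESeq2 (background 4.65%; 28 of 40 had an unadjusted p below 0.05 in either direction, where 60.5% of all genes did), and 2 were called lower, Fancd2 and Ercc1 (background 5.66%). Cotreated libraries lay wholly above cisplatin libraries for 6 genes (background 19.3%) and wholly below for 12 (background 18.5%). Of the 8 genes called up with cisplatin, 7 were lower in cotreated kidneys and Rev1 did not pass. The same share was not counted over all tested genes called up with cisplatin, so this count stands without a matching background. These 2 comparisons share the cisplatin libraries, so the values are set side by side only. Against vehicle, cotreated kidneys had 18 genes higher (background 29.8%) and 7 lower (background 29.9%), and library totals gave 25 and 6. Polk, Rev1, Brca1, and Ercc5 were called higher (background 5.83%) and Brip1 was called lower (background 7.59%). Cotreated libraries lay wholly above vehicle libraries for 10 genes (background 18.9%) and wholly below for 5 (background 18.5%).

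The third comparison asked whether KW6002 alone changed these genes. No gene passed in either direction by edgeR or DESeq2, against backgrounds of 0.0175% higher and 0 lower, and 5 of 40 had an unadjusted p below 0.05, where 11.3% of all tested genes did. For no gene were KW6002 and vehicle libraries fully apart (background 0.391% above and 0.992% below). The widest estimate was that of Brca1 (log2 0.64 ± 0.26, adjusted p = 0.35), with the split by label series given above. The smallest unadjusted p was that of Rev1, which was higher by 0.23 ± 0.07 (adjusted p = 0.26).

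The fourth comparison tested whether the effect of KW6002 differed with and without cisplatin. The difference was positive for 7 genes, against a background of 22.8%, and negative for 14, against 19.9%. It was called negative for Fancd2 (log2 -1.72 ± 0.35, adjusted p = 0.00042), Brca1 (-1.31 ± 0.34, adjusted p = 0.0038), Fanci (-1.30 ± 0.38, adjusted p = 0.0077), and Ercc1 (-1.18 ± 0.15, adjusted p = 1.6e-06), against a background of 4.33%. None was called positive by edgeR or DESeq2 (background 4.24%), and 25 of 40 had an unadjusted p below 0.05 in either direction, where 50% of all genes did. Among mice numbered in the 500s alone the difference was -0.61 for Brca1 (adjusted p = 0.27), -1.797 for Fancd2 (adjusted p = 0.013), and -1.55 for Rad18, which over all mice was -0.88 ± 0.24 (adjusted p = 0.0047). The largest positive differences were those of Fancl (0.81 ± 0.15), Fancm (0.77 ± 0.13), and Atm (0.59 ± 0.14).

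Fancd2, Fanci, and Brca1 were read beside the markers of dividing cells because their levels are low in kidney and rise in S and G2 phase in many cells. The summed markers ran from 38.3 to 52.3 CPM in cisplatin libraries and no higher than 25.6 in any other, and Fancd2 was at 1.07 CPM or more in every cisplatin library and at most 1.06 elsewhere. With both drugs the markers were at 8.84 to 21.1 CPM, within or below the range of vehicle. Between cotreated and vehicle kidneys Fancd2 and Fanci did not pass. In fits leaving out a library their log2 changes were -0.53 to -0.18 and -0.29 to 0.29. Brca1 was among the genes called higher in that comparison, with Polk, Ercc5, and Rev1, at 2.06-fold to 3.16-fold above vehicle. The part of dividing cells in these results was not tested.

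**Figure D4:**
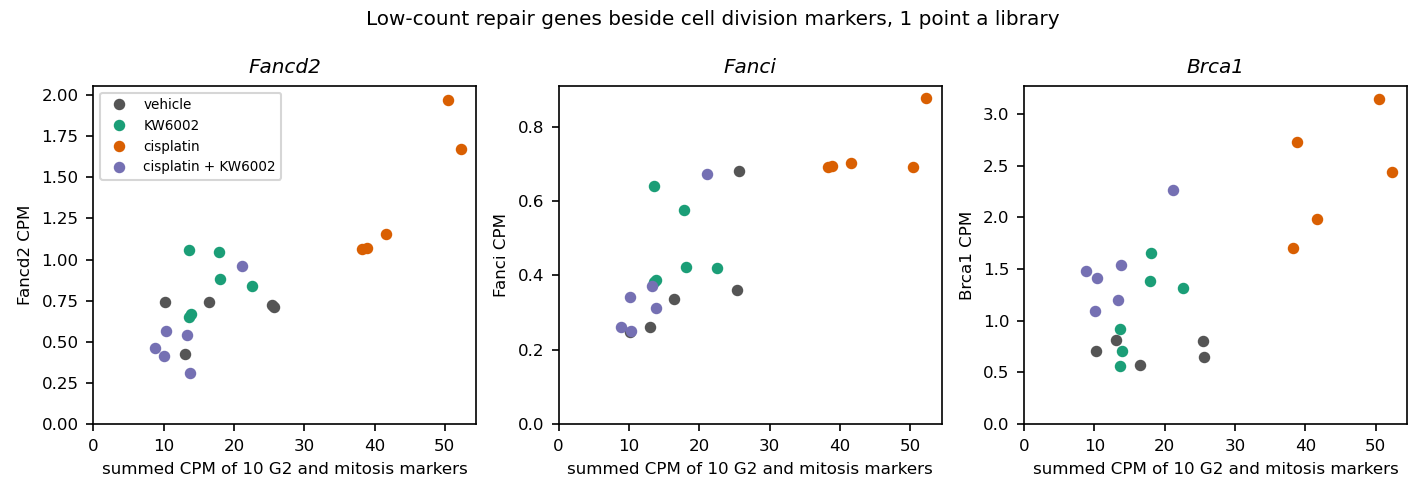
CPM of Fancd2, Fanci, and Brca1 (vertical axes) against the summed CPM of 10 markers of cells in G2 and mitosis (horizontal axes), with 1 point a library coloured by group. The 5 cisplatin libraries lie to the right of 38 on the marker axis, and cotreated replicate 1 has the highest marker sum and the highest level of each gene in its group.

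Ratios within a library compare partners and paralogs without scaling between libraries. They are given as descriptions, with CPM per kilobase in both places. The ratio of Ercc1 to its nuclease partner Ercc4 was 1.03 ± 0.161 with vehicle (SD, n = 5), 1.08 ± 0.150 with KW6002 (n = 6), 4.10 ± 0.564 with cisplatin (n = 5), and 1.68 ± 0.262 with both drugs (n = 6). Mad2l2 to Rev3l, the bridge and the catalytic subunit of polymerase zeta, went from 1.34 ± 0.120 with vehicle to 3.32 ± 0.442 with cisplatin and 2.25 ± 0.257 with both drugs. In neither ratio did vehicle and cisplatin libraries overlap. The ratio of Fancd2 to Fanci overlapped between all groups, at 1.44 ± 0.525 with vehicle, 1.38 ± 0.402 with cisplatin, and 1.11 ± 0.323 with both drugs.

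Rrm2, the S phase counterpart of Rrm2b, rose by 2.03 ± 0.16 with cisplatin (adjusted p = 8.5e-11) while Rrm2b did not pass, and the ratio of Rrm2 to Rrm2b went from 0.391 ± 0.134 with vehicle to 1.62 ± 0.197 with cisplatin and 1.11 ± 0.153 with both drugs. The ratio of Usp1 to Wdr48, its activating partner, was 1.05 ± 0.0357 with vehicle, 1.26 ± 0.166 with cisplatin, and 1.84 ± 0.188 with both drugs. Brca1 to Bard1, its partner in a ubiquitin ligase, was 0.717 ± 0.481 with vehicle, 2.16 ± 0.429 with cisplatin, and 2.92 ± 1.60 with both drugs, so this ratio was not lower with KW6002 added, and Bard1 had 6 to 42 reads per library. Xpc to Rad23b overlapped between all groups, at 0.453 ± 0.0409 with vehicle and 0.413 ± 0.0345 with cisplatin.

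**Figure D5:**
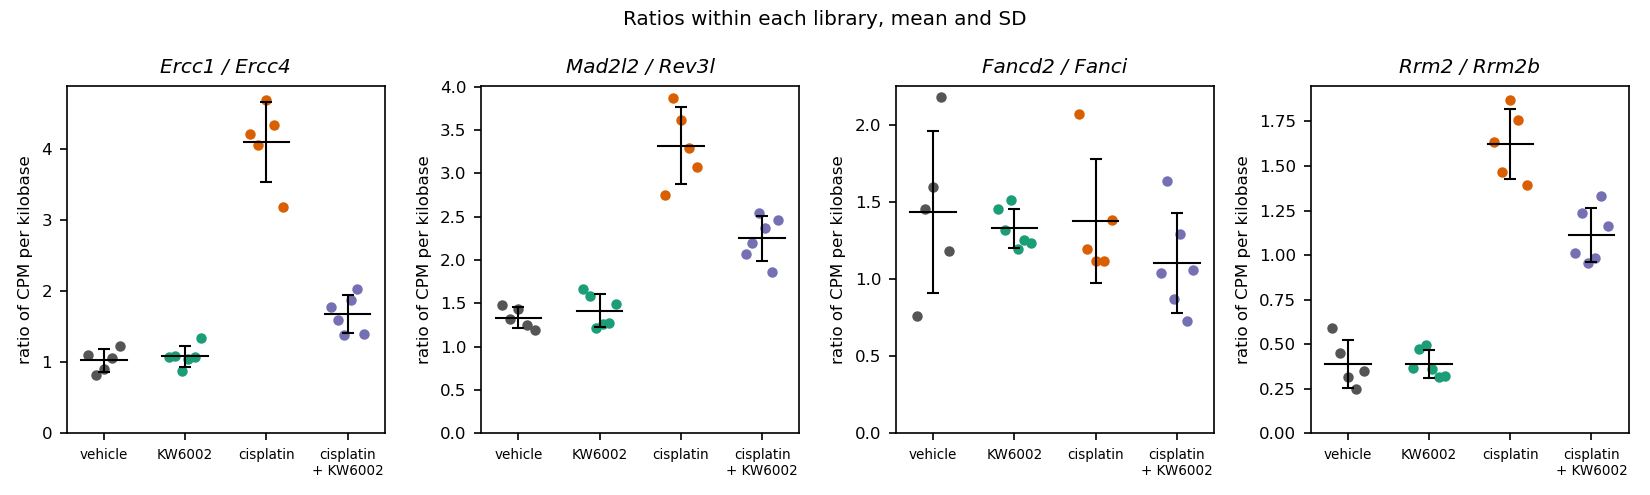
Ratio of CPM per kilobase within each library (vertical axis, from 0) for 4 pairs of repair genes, by group, with the mean and SD in black. Ercc1 to Ercc4, Mad2l2 to Rev3l, and Rrm2 to Rrm2b are highest with cisplatin and lower with both drugs, and Fancd2 to Fanci overlaps between all groups.

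In 12 of the 40 genes (30.0%) the start lay within 1000 bases of that of a protein-coding gene on the other strand, against 14.5% of the 14700 tested protein-coding genes. Of the called genes, 4 had such a neighbour, and that of Mad2l2, Draxin, was too low to be tested. Polk lies 39 bases from Col4a3bp, which fell by 0.58 with cisplatin, Brca1 194 bases from Nbr1, which fell by 0.39, and Fancd2 30 bases from Emc3, which fell by 0.12. Atm, which fell, lies 307 bases from Npat, which rose by 0.25. Ddb1 and its neighbour Tkfc, 327 bases away, both rose, by 0.14 and 0.28, and Rad51c fell while its neighbour Tex14, 111 bases away, was at -0.80 (adjusted p = 0.059). Msh6 has no such neighbour, and the 250 bases before its start (chr17:87974800-87975049, plus strand, GRCm38.p6 from RefSeq, outside annotated exons) are shown as the mismatch repair example with CCAAT on the other strand, read as ATTGG, in capitals.
Msh6: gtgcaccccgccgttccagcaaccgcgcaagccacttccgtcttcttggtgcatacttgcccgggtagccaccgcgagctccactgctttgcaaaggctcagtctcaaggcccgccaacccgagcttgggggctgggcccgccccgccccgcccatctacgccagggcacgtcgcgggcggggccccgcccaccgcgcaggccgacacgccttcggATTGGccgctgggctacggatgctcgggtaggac

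Of 87 other genes of these pathways, 86 were tested. With cisplatin 33 rose (background 34.6%) and 29 fell (background 35.9%), with a median of 0.07. In cotreated against cisplatin kidneys 20 were higher (background 28.6%) and 27 lower (background 27.2%), with a median of -0.09. The 6 other translesion genes differed in their counts from the 6 described above: none rose by the edgeR test and 3 fell (3 at an unadjusted p below 0.05 in either direction). In the other mismatch repair genes 1 of 7 rose and 5 fell, and in other excision repair genes 5 of 19 rose and 9 fell. The cisplatin backgrounds above apply to each of these groups. The largest called changes with cisplatin were those of Clspn (2.21 ± 0.32), which helps Atr activate its checkpoint, Rrm2, the glycosylase Neil3 (1.91 ± 0.44), the nuclease Exo1 (1.48 ± 0.49), the Fanconi conjugating enzyme Ube2t (1.20 ± 0.30, libraries overlapping), and the nuclease subunit Eme1 (1.19 ± 0.39). With KW6002 added, Neil3 fell by 2.02 ± 0.41, Eme1 by 2.00 ± 0.39, Exo1 by 1.77 ± 0.47, and Clspn by 1.44 ± 0.28. Clspn, Neil3, Exo1, Ube2t, and Eme1 are low, with means below 2 CPM in every group.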

How the data were processed

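Total RNA of whole kidneys was made into stranded polyadenylated libraries and sequenced as single reads by the authors, who aligned them with STAR to mm10 and counted uniquely aligned reads per Ensembl gene with HTSeq 0.6.1p1 in union mode. The deposited values are raw counts per gene. The table also holds 66 unnamed empty columns, which were not used.

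Counts of all 22 libraries (1 per mouse, 26471762 to 40510754 counts) were fitted together with edgeR 4.0.16 (quasi-likelihood test, TMM factors, R 4.3.3), after filterByExpr kept 17131 genes. Benjamini-Hochberg adjustment ran over all of these genes. Higher and lower mean an adjusted p below 0.05, and called asks for an adjusted p under 0.01 with a log2 change past 1 in size. CPM uses TMM library sizes, and CPM per kilobase divides by the merged exon length. The groups are those of the labels, and all tests are two-sided. On simulated counts of 16501 genes for cisplatin against vehicle, 72 of 96 genes changed by a log2 of 1 passed, 95 of 99 changed by 2, and 7 of 16306 unchanged genes. The simulation started from vehicle levels and changed few genes, evenly up and down. In the measured comparison 34.6% of genes were higher and 35.9% lower, so these rates check the fit and do not describe that comparison or its scaling.

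The members, groups, pathway lists, and marker lists were chosen with earlier results of these data known. All 40 members are named, with the value of each of the 5 vehicle and 5 cisplatin libraries and the lowest, median, and highest (or the range) of the groups of 6 for those called, and ranges or fitted changes for most others. Other pathway genes are named for the largest called changes or as the paralog of a member, and 1 paralog is not reported here. Wdr48, Bard1, and the neighbours Npat, Tkfc, and Tex14 were chosen after their values were seen, and the other neighbours named are those of called members. Promoter windows (250 bases before a start, GRCm38.p6) came from RefSeq for 33 of the 40 genes, and motifs were searched on both strands. Alternatives were DESeq2 1.42.0, other scaling and filters, the label series, the replicate number as a block, a test with a minimum fold, only the groups compared, and leaving out each library.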

Additional observations from a re-analysis of the deposited data

Results flagged for a closer look

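Of 160 sets of values (40 genes in 4 groups), 9 had a highest or lowest library that stood apart by Dixon's criterion, which chance alone gives in about 1 in 20 sets. Fanci accounted for 3 of them, with 0.680 CPM in vehicle replicate 1, 0.878 in cisplatin replicate 5, and 0.671 in cotreated replicate 1, each the highest of its group and each resting on few reads. Fancd2 was lowest in vehicle replicate 5 (0.423 CPM, next 0.712). Rad51c was highest in KW6002 replicate 6 (4.22 CPM, next 2.41), and Xpa was lowest in the same library (7.70 CPM, next 9.49). Ercc5 was highest in KW6002 replicate 4 (28.4 CPM), Ercc6 in cisplatin replicate 1 (26.8 CPM), and Fancc in cotreated replicate 1 (9.497 CPM, next 7.62).

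The effect of KW6002 differed with and without cisplatin, by the interaction term of the edgeR fit, for 4 genes past the call. The difference on the log2 scale was -1.18 for Ercc1 (adjusted p = 1.6e-06), -1.72 for Fancd2 (adjusted p = 0.00042), -1.30 for Fanci (adjusted p = 0.0077), and -1.31 for Brca1 (adjusted p = 0.0038). For Ercc1 KW6002 and vehicle libraries overlapped while cotreated and cisplatin libraries did not. For Brca1 the KW6002 libraries split by label series, and the difference did not pass among mice numbered in the 500s (-0.61, adjusted p = 0.27).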

How the results depend on the processing

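Of 186 counts of genes recomputed under other settings, 175 stayed within 1.5 times the reported count and 11 did not. Scaling by library totals gave 29 genes higher and 0 called lower with cisplatin, 7 higher in cotreated than in cisplatin kidneys, and 7 called higher in cotreated than in vehicle kidneys. It also turned the sign for cisplatin against vehicle of Xpc (0.18), Ercc2 (0.00013), Ercc3 (0.20), Ercc6 (0.0146), and Rrm2b (0.18), and for cotreated against vehicle of Ddb1 (0.11). Library totals leave out the TMM factors, which shifts all genes of a comparison by about the same amount. These factors were 0.925 to 0.947 with vehicle, 1.06 to 1.12 with cisplatin, and 1.01 to 1.06 with both drugs. Why they differed between groups was not tested. Adding the label series to the model gave 2 genes called lower with cisplatin, Brip1 and Rad51c, and among mice numbered in the 500s, which leaves fewer samples, 4 were lower in cotreated than in vehicle kidneys. Tested against a log2 fold change of 1, a stricter criterion, calls were 0 lower with cisplatin, 0 lower in cotreated than in cisplatin kidneys, 1 higher and 0 lower against vehicle, and 0 negative for the difference between KW6002 effects.

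Leaving out each library in turn gave 7 to 9 genes called higher and 0 to 2 called lower with cisplatin. The count called lower was 0 without cisplatin replicate 3 and 2 without vehicle replicate 4 or cisplatin replicate 5. Of 260 such counts, 257 stayed within 1.5 times. Of 3556 values of single genes over all settings, 3390 stayed on the same side of the threshold, with the same direction where both fits passed. Direction was not compared where neither fit passed.

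Of 31 same-numbered pairs, 8 had deviations correlated above 0.1 (range -0.23 to 0.49). Between vehicle and KW6002 the correlations were 0.49, -0.18, 0.18, 0.22, and 0.26, in the order of replicate numbers. Same-numbered mice of these groups share a label series, so number and series cannot be told apart there. Pairs with different numbers were not compared, so whether replicate numbers pair the samples was not tested. With the replicate block 19 genes were higher with cisplatin and 19 in cotreated against vehicle kidneys, and the difference between KW6002 effects was negative for 13. Fanci, Fancd2, and Brca1 rest on 7 to 118 reads per library, which limits their precision. The fit of only the groups compared does not apply to the difference between KW6002 effects.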
